A study of Mus musculus with 3 samples.

Results

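Messenger RNA of 42 genes for the synaptic vesicle cycle and for the assembly of synapses was examined in 3 cell populations purified by fluorescence-activated cell sorting (FACS), each measured on 1 one-color Agilent mouse array. The genes were taken as a fixed list, and a probe was assigned to one of them when the accession it carries is a RefSeq transcript of that gene. In this way 41 of the 42 genes were found, out of 20142 genes named by the same rule, with 67 probes between them (26 genes with 1 probe and 15 with several). *Syt5* had no probe assigned by this rule. The first population, ES-Lhx6-GFP+ cells, came from J14 cells, a line of male 129S4/SvJae mouse embryonic stem (ES) cells that carries an Lhx6-GFP BAC transgene, in which Lhx6 regulatory sequences drive green fluorescent protein, together with a viral 692-mCherry enhancer reporter. The cells had been differentiated as aggregates with 100 ng/ml Dkk-1, an inhibitor of Wnt signaling, and 6 nM SAG, an agonist of the Shh pathway, and were sorted at day 12 (D12). ES-Lhx6-GFP- cells carried the same transgene and reporter, received the same treatment and were sorted from such D12 aggregates for lack of GFP, which makes them the GFP-negative cells of the study. MGE-Lhx6-GFP+ cells were sorted at E12.5 from the medial ganglionic eminence (MGE), the embryonic structure that gives rise to Lhx6-expressing interneurons, of female CD1 embryos with the Lhx6-GFP BAC. They were not cultured and received neither factor.

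Strain, sex, reporter, culture and tissue origin therefore differed together between the MGE cells and both ES-derived populations, and their parts in any difference cannot be told apart. J14 is a single transgenic line, and the number of embryos behind the MGE sample is not given in the sources used here. Because each population was measured once, no difference has a replicate check, none was tested, and precision is limited by the number of arrays. In RNA from many cells, fewer cells of a type and less RNA per cell cannot be told apart.

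Neurons release transmitter from synaptic vesicles, which are filled with transmitter, docked and primed at the active zone of the presynaptic membrane, fused with it by SNARE proteins when calcium binds synaptotagmin, and then recovered by endocytosis. Adhesion molecules such as neurexins and neuroligins bridge the cleft, and scaffold proteins hold receptors on the postsynaptic side. Newly born neurons already express many of these proteins while they migrate and extend axons, before synapses form. In cells outside the nervous system many of the same genes are held silent by REST, a repressor that binds a DNA element called RE1.

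Promoter sequences are shown for genes on which the values below turn or which carry a match to the left part of RE1. In the RefSeq promoter table of GRCm38.p6, which gives 250 bases before and 50 bases after each transcription start, 33 of the 42 genes had 49 promoters. Promoters on 1 chromosome were left out for the 42 genes but kept in the shares over all promoters. The letters TTCAGCACC (the left part of RE1), GGACAGC (its right part), TAATTA (a core bound by homeodomain proteins), TGACGTCA (the cyclic AMP response element) and GGGCGG (the GC box) were searched on both strands, and none of these motifs contains another. The left part of RE1 was in 3 of the 49 promoters (6.12%), compared with 0.371% of all 32851 promoters in the table. Its right part was in 4 promoters (8.16%, against 6.56% of all), TAATTA in 1 (2.04% against 5.29%), the cyclic AMP response element in 2 (4.08% against 1.79%) and the GC box in 30 (61.2% against 35.7%). The promoters with the right part belong to *Unc13a* and *Syt6*, and those of *Syt6* are not shown. These are matches of letters and not measured binding sites, and the motifs and the promoters shown were chosen after the expression values had been seen.

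The 3 promoters with the left part of RE1 belong to *Syn1* (chrX:20920869-20921168, minus strand), *Unc13a* (chr8:71671708-71672007, minus strand) and *Nlgn1* (chr3:26153937-26154236, minus strand, one of its 2 promoters in the table). *Rims1* (chr1:22806109-22806408, minus strand) and *Rims3* (chr4:120854549-120854848, plus strand) are shown as 2 genes of one family whose values ran in opposite ways between MGE and GFP-negative cells. Each sequence is given 5′ to 3′ on the strand of its gene, and capitals mark every match to a searched motif or to its reverse complement.
Syn1: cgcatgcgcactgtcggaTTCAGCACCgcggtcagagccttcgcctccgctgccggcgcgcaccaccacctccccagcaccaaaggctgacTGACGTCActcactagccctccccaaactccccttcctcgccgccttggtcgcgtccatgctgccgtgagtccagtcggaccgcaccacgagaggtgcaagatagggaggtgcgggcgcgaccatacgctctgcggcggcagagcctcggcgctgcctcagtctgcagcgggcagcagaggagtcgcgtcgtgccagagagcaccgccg
Unc13a: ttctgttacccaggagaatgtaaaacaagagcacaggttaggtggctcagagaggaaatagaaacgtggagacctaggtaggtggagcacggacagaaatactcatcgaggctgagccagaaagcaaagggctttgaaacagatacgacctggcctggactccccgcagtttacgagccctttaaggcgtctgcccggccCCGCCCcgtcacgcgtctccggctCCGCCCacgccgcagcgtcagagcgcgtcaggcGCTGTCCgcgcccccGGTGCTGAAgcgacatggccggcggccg
Nlgn1: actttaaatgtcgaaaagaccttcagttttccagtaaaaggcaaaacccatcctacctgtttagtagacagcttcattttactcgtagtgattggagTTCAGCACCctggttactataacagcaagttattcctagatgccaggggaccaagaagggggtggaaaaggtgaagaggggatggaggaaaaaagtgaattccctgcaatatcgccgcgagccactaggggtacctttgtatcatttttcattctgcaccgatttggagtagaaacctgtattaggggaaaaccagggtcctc
Rims1: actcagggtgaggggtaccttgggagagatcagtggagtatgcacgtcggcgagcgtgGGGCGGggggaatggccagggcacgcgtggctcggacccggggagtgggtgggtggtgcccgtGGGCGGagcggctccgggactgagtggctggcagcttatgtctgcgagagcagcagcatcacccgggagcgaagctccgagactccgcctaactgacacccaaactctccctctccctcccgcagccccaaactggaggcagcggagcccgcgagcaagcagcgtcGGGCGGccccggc
Rims3: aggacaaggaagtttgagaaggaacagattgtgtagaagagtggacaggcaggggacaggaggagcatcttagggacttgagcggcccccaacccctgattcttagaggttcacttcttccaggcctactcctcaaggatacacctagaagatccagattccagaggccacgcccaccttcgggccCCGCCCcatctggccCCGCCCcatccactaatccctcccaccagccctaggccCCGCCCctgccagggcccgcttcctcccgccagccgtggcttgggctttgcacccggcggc
In the *Unc13a* promoter both parts of RE1 are present on the opposite strand with 8 bases between them. Of the 32851 promoters, 12 hold both parts in that order on 1 strand, at any distance within the 300 bases. The *Syn1* promoter has the left part of RE1 and a cyclic AMP response element, that of *Nlgn1* has the left part of RE1 alone, and those of *Rims1* and *Rims3* have several GC boxes and neither part of RE1.

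Intensities are given here as multiples of the 75th percentile of all mouse probes on the same array (a scaled intensity of 1 is that percentile), and for a gene with several probes as their geometric mean. Scaled intensities of different genes are not compared with each other, because probes differ in brightness. The sums over marker lists below are the exception, and in them the brightest probes weigh most. On the 3 arrays 77.1 to 90.6% of the probes were well above background, no spot was saturated, and all arrays were on 1 slide. The 106 control probes, made for ERCC spike-ins and adenovirus E1A and so without a mouse transcript, set the ES-Lhx6-GFP+ array apart, with 86 of them well above background compared with 35 for GFP-negative and 34 for MGE cells. Their 95th percentile was a scaled intensity of 0.504 for ES-Lhx6-GFP+, 0.243 for GFP-negative and 0.263 for MGE cells, and a gene is called within the control range on an array where none of its probes exceeded that value. Repeat spots of single probes gave an SD of 0.20 for a log2 difference between any 2 of the arrays, and 2 SDs were a 1.32-fold difference, which leaves out variation between cultures, embryos, sorts and amplifications.

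Most of the 41 genes gave a signal in all 3 populations. In GFP-negative cells 40 of the 41 were well above background, against 82.7% of all named genes, and 36 exceeded the control range, against 57.7%. The numbers were 40 and 36 in ES-Lhx6-GFP+ cells, against 91.7% and 47.0% of all genes. In MGE cells they were 39 and 35, against 79.4% and 52.5%. *Sv2b*, *Syt2*, *Unc13a* and *Dlg4* were within the control range on every array, *Nlgn1* on both ES arrays, and *Sv2c* and *Rims3* on the MGE array. *Dlg4*, the main scaffold of excitatory postsynaptic sites, was well above background in ES-Lhx6-GFP+ cells alone, with a scaled intensity of 0.0705, and *Sv2b*, a vesicle glycoprotein, in GFP-negative cells alone, with 0.0827. *Snap25*, a SNARE protein of the presynaptic membrane, had scaled intensities of 187 in GFP-negative, 208 in ES-Lhx6-GFP+ and 256 in MGE cells. Like *Snap25*, most of the genes were thus above the control probes in the GFP-negative population as well.

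**Figure D1:**
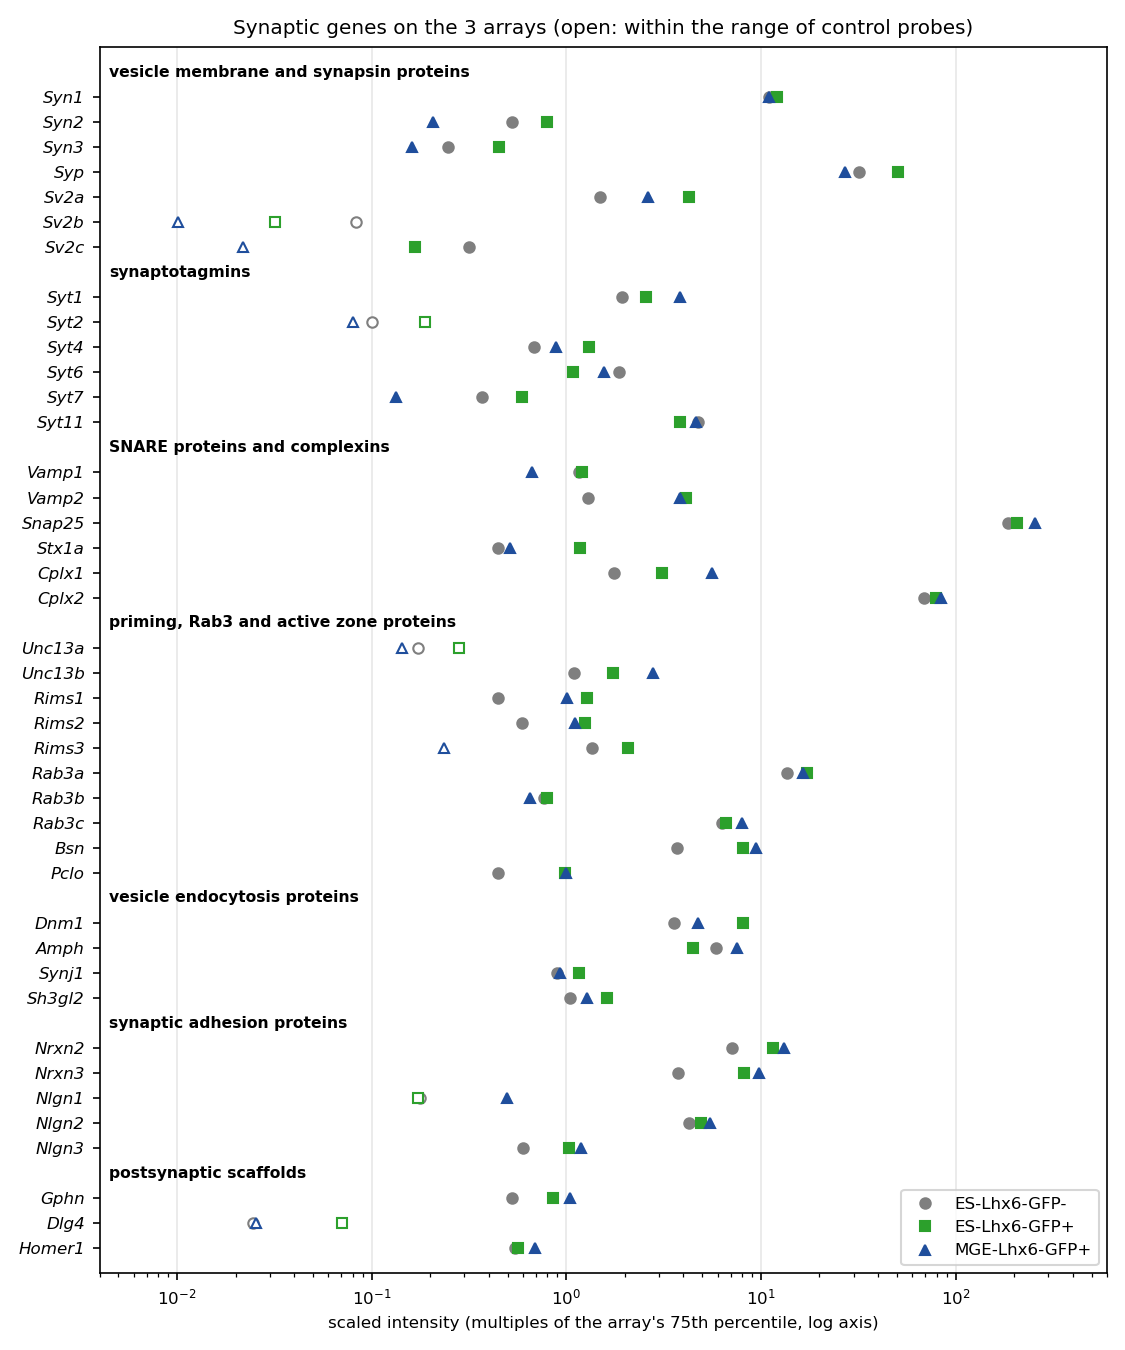
Scaled intensity of each of the 41 genes on the 3 arrays (horizontal log axis, in multiples of the 75th percentile of the array), grouped by role, with 1 symbol per array. Filled symbols exceed the 95th percentile of the control probes with at least 1 probe and open symbols do not, and the filled ones number 36 for ES-Lhx6-GFP-, 36 for ES-Lhx6-GFP+ and 35 for MGE-Lhx6-GFP+.

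Between the ES-derived populations, the comparison asks how sorted Lhx6-GFP+ cells differed from GFP-negative cells of such cultures. The median log2 difference of the 41 genes, ES-Lhx6-GFP+ over GFP-negative, was 0.66, compared with 0.27 over 18655 named genes. The genes that reached 2-fold higher were *Sv2a*, *Vamp2*, *Stx1a*, *Rims1*, *Rims2*, *Bsn*, *Pclo*, *Dnm1*, *Nrxn3* and *Dlg4*, 10 of the 41 or 24.4%, and the share among all genes was 24%, so this count did not set the synaptic genes apart. *Sv2b* alone was at least 2-fold lower, where 6.4% of all genes were. Counting differences of any size, 35 of the 41 genes (85.4%) were higher, against 64.5% of all genes, while 25 were higher by over 2 SDs of repeat spots, against 43.7%, and 3 lower, against 18.2%.

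These shares depend on dim probes and on the scaling. With the floor of each array raised to the 95th percentile of its control probes, 9 of the 36 genes still measured were at least 2-fold higher (25.0%), against 7.11% of all genes, and none was lower, against 5.97%. The median over all genes was -0.18 with the 50th percentile in place of the 75th, which shifts all differences of a comparison alike, bounds aside, 0.00 with quantile normalization and 0.02 in the log2 values the authors deposited. With the 50th percentile 4 of 41 genes were at least 2-fold higher and 3 lower (14.9% and 13.7% of all genes), with quantile normalization 9 of 40 higher and 2 lower (11.5% and 15%), and in the deposited values 8 of 41 higher and 1 lower (6.02% and 6.89%). Genes are therefore singled out below where they differed at least 2-fold in one direction under each of these 4 scalings, which held for 3 of 40 genes as higher (*Sv2a*, *Vamp2* and *Rims1*, 7.5% against 4.53% of all genes) and for *Sv2b* as lower (2.5% against 6.07%).

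A comparison of MGE with ES-Lhx6-GFP+ cells asks how far the cells made in culture resembled those of the embryo. The median log2 difference, MGE over ES-Lhx6-GFP+, was -0.11 over 40 genes, compared with -0.36 over 18578 named genes. The genes at least 2-fold lower in MGE cells were *Syn2*, *Syn3*, *Sv2c*, *Syt2*, *Syt7*, *Stx1a*, *Rims3* and *Dlg4*, 8 of the 40 (20.0%), against 32.2% of all genes, and *Nlgn1* alone was at least 2-fold higher, against 5.48%. Of any size, 18 genes were higher (45.0%), against 36.4% of all genes, and by over 2 SDs of repeat spots 6 were higher and 14 lower, against 20.2% and 48.6%. With the other scalings the median over all genes was 0.40 (50th percentile), 0.05 (quantile) and -0.01 (deposited). The counts at least 2-fold higher and lower then became 12 and 4 of 40 with the 50th percentile (26% and 17.1% of all genes), 1 and 6 of 39 with quantile normalization (14.6% and 13.7%), 1 and 5 of 40 in the deposited values (6.08% and 8.1%) and, with the floor at the control probes, 0 and 5 of 36 (7.59% and 10.1%). Under each of the 4 scalings *Syn2*, *Sv2c*, *Syt7* and *Rims3* were at least 2-fold lower in MGE cells (4 of 39 genes, 10.3% against 6.4% of all) and *Nlgn1* was at least 2-fold higher (2.56% against 4.21%).

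MGE cells were also compared with the GFP-negative cells. The median log2 difference, MGE over GFP-negative, was 0.34 over 40 genes and -0.06 over 17024 named genes. At least 2-fold higher in MGE cells were *Pclo* and the 7 genes named below, 8 of the 40 (20.0%), against 9.9% of all genes, and *Syn2*, *Sv2b*, *Sv2c*, *Syt7* and *Rims3* were at least 2-fold lower (12.5%), against 17.2%. Any higher value was seen in 26 of the 40 genes (65.0%), against 47.4% of all, and by over 2 SDs of repeat spots 16 were higher and 7 lower, against 28.3% and 34.4%. The median over all genes was 0.25 with the 50th percentile, 0.05 with quantile normalization and 0.03 in the deposited values. The counts higher and lower were 14 and 5 of 40 with the 50th percentile (17.9% and 12.6% of all genes), 8 and 5 of 40 with quantile normalization (10.4% and 12.8%), 8 and 2 of 40 in the deposited values (6.64% and 9.32%) and 8 and 3 of 37 with the floor at the control probes (10.5% and 10.6%). Under each of the 4 scalings *Vamp2*, *Cplx1*, *Unc13b*, *Rims1*, *Bsn*, *Nrxn3* and *Nlgn1* were at least 2-fold higher (7 of 40 genes, 17.5% against 6.56% of all), and *Sv2c* and *Rims3* were at least 2-fold lower (5% against 8.24%). Each pair of comparisons shares 1 array, so the 3 sets of values are not independent of each other.

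**Figure D2:**
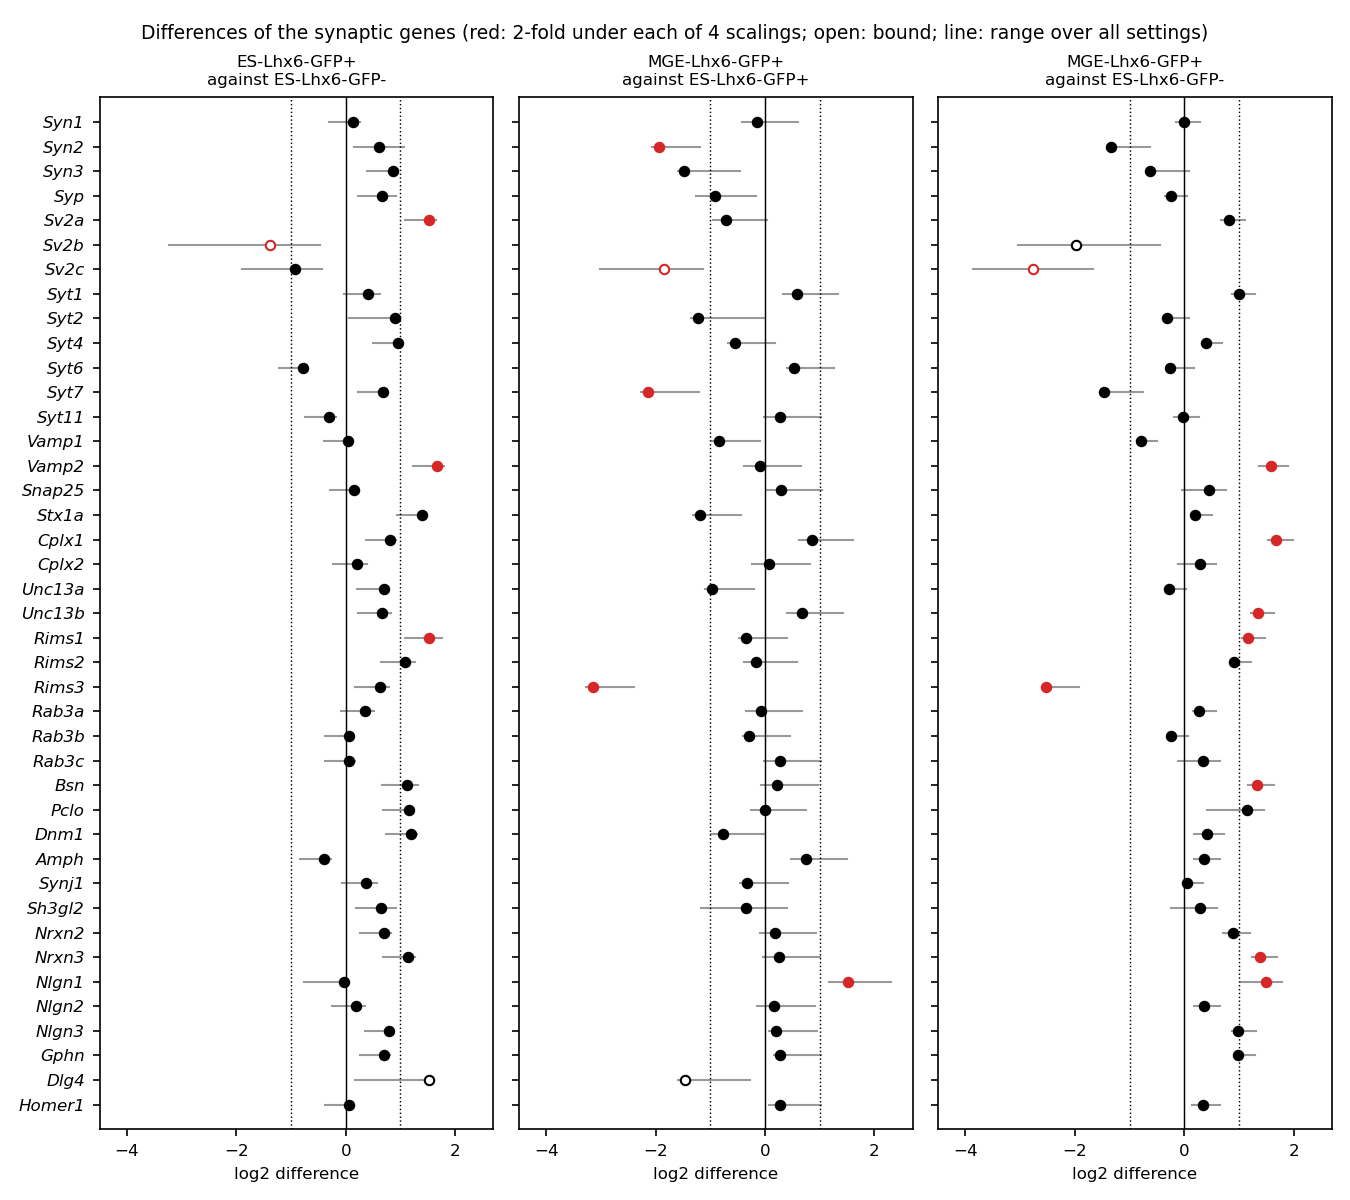
Log2 difference of each of the 41 genes in the 3 comparisons (horizontal axis), with points for the 75th percentile scaling, grey lines for the range over all settings tried, dotted lines at a 2-fold difference and open points where a probe gave only a bound. Red points are at least 2-fold in one direction under each of the 4 scalings, and the lowest of them is *Rims3* in MGE over ES-Lhx6-GFP+ cells, at -3.15.

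Among vesicle membrane and synapsin genes, *Sv2a*, a glycoprotein found on nearly all synaptic vesicles, had scaled intensities of 1.49 in GFP-negative, 4.29 in ES-Lhx6-GFP+ and 2.61 in MGE-Lhx6-GFP+ cells. ES-Lhx6-GFP+ cells exceeded GFP-negative cells by 2.88-fold, with log2 differences of 1.08 to 1.64 over all settings. MGE cells lay between, 1.75-fold above GFP-negative and 1.64-fold below ES-Lhx6-GFP+ cells, the latter difference turning to a log2 value of 0.03 with the 50th percentile. The other members of that family ran another way. *Sv2c*, which in the adult brain is abundant in basal ganglia, had scaled intensities of 0.315, 0.166 and 0.0217 in the same order of populations, so MGE cells were the lowest. It was at least 3.59-fold lower in MGE than in ES-Lhx6-GFP+ and at least 6.81-fold lower than in GFP-negative cells, where the brighter of its probes was 8.09-fold and 14.3-fold lower and the other, not well above background in MGE cells, gave only a bound. *Sv2b* had scaled intensities of 0.0827, 0.0318 and 0.0101, all within the control range, and it was at least 2.60-fold lower in ES-Lhx6-GFP+ than in GFP-negative cells, but with a normexp background correction the log2 difference was -0.46, under 2-fold. In MGE cells it was at least 3.94-fold lower than in GFP-negative cells, where the deposited values gave a log2 difference of -0.79.

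The synapsins, which tether vesicles in a reserve pool, differed among themselves. *Syn1* was nearly level across the populations, with scaled intensities of 11.0 in GFP-negative, 12.1 in ES-Lhx6-GFP+ and 11.0 in MGE-Lhx6-GFP+ cells and no difference over 2 SDs of repeat spots. *Syn2* had scaled intensities of 0.524, 0.793 and 0.206 and was lowest in MGE cells, 3.85-fold below ES-Lhx6-GFP+ cells, with its probes at 3.59-fold and 4.11-fold. Its log2 difference between MGE and GFP-negative cells was -1.34, but -0.80 in the deposited values. *Syn3*, with scaled intensities of 0.248, 0.449 and 0.162, was 2.78-fold lower in MGE than in ES-Lhx6-GFP+ cells, and less than 2-fold lower under the other 3 scalings. *Syp*, synaptophysin, one of the most abundant vesicle proteins, had scaled intensities of 32.0, 50.6 and 26.9 and was 1.58-fold higher in ES-Lhx6-GFP+ than in GFP-negative cells and 1.88-fold lower in MGE than in ES-Lhx6-GFP+ cells. All 6 genes of this role with a value were lower in MGE than in ES-Lhx6-GFP+ cells, in a comparison where 36.4% of all genes were higher and the rest lower, except that with the 50th percentile *Syn1* and *Sv2a* were higher (log2 differences of 0.61 and 0.03).

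Of the synaptotagmins, *Syt7*, a slow calcium sensor with high calcium affinity, was the one that met the condition of 4 scalings. Its scaled intensities were 0.371 in GFP-negative, 0.592 in ES-Lhx6-GFP+ and 0.134 in MGE-Lhx6-GFP+ cells. MGE cells were the lowest, 4.43-fold below ES-Lhx6-GFP+ cells (5.51-fold and 3.56-fold by its probes), and 2.78-fold below GFP-negative cells, a difference that was under 2-fold in the deposited values (log2 value of -0.76). *Syt1*, the calcium sensor of fast release in most forebrain synapses, ran the opposite way, with scaled intensities of 1.93, 2.58 and 3.86. It was 1.99-fold higher in MGE than in GFP-negative cells, just below the 2-fold line, and its log2 difference was 0.86 to 1.30 over all settings. *Syt4*, which has little calcium binding of its own, had 0.679, 1.31 and 0.890, highest in ES-Lhx6-GFP+ cells by 1.93-fold over GFP-negative cells. *Syt6* had 1.87, 1.09 and 1.56 and was lowest in ES-Lhx6-GFP+ cells, 1.72-fold below GFP-negative cells. *Syt11*, with scaled intensities of 4.76, 3.84 and 4.66, stayed within 1.24-fold in each comparison. *Syt2*, the fast sensor of many parvalbumin interneurons in the adult, had 0.101, 0.188 and 0.0804 and was not measured above the control range.

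The SNARE proteins bring vesicle and cell membrane together, and complexins bind the assembled SNARE complex. *Vamp2*, the main vesicle SNARE of the forebrain, had scaled intensities of 1.29 in GFP-negative, 4.11 in ES-Lhx6-GFP+ and 3.86 in MGE-Lhx6-GFP+ cells. Both GFP+ populations were high and differed from each other by 1.06-fold, less than 2 SDs of repeat spots, and they were 3.19-fold and 3.00-fold above GFP-negative cells. With the 50th percentile the log2 difference of *Vamp2* between MGE and ES-Lhx6-GFP+ cells was 0.66. *Vamp1*, its close relative, did not share this pattern: scaled intensities were 1.16, 1.20 and 0.668, with MGE cells 1.79-fold below ES-Lhx6-GFP+ cells. *Cplx1* had scaled intensities of 1.77, 3.11 and 5.63, so that each population stood apart from the next, and MGE cells were 3.19-fold above GFP-negative cells. *Cplx2*, its paralog, had 68.9, 79.7 and 83.9, with differences of at most 1.22-fold, although one of its 4 probes was lower in both GFP+ populations than in GFP-negative cells (log2 differences of -0.21 and -0.58) while the other 3 were higher. With the 50th percentile the log2 difference of *Cplx2* between MGE and ES-Lhx6-GFP+ cells was 0.82. *Stx1a*, syntaxin 1A, the partner of SNAP-25 in the presynaptic membrane, had 0.447, 1.17 and 0.512 and was highest in ES-Lhx6-GFP+ cells, 2.62-fold over GFP-negative and 2.29-fold over MGE cells. With the 50th percentile these log2 differences of 1.39 and -1.19 were 0.95 and -0.45, under 2-fold. The 6 genes of this role were all higher in ES-Lhx6-GFP+ than in GFP-negative cells, where 64.5% of all genes were, except that *Vamp1*, *Snap25* and *Cplx2* were lower with the 50th percentile and *Snap25* also with quantile normalization, in the deposited values and with median signals without background subtraction.

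Of the 7 genes higher in MGE than in GFP-negative cells under the 4 scalings, 3 encode priming factors or active zone proteins (*Unc13b*, *Rims1* and *Bsn*). *Rims1*, which links Rab3 on vesicles to the active zone and to calcium channels, had scaled intensities of 0.446 in GFP-negative, 1.28 in ES-Lhx6-GFP+ and 1.01 in MGE-Lhx6-GFP+ cells. Against GFP-negative cells it was higher by 2.87-fold in ES-Lhx6-GFP+ and by 2.26-fold in MGE cells, and its probes gave 2.43-fold and 3.39-fold in the first comparison and 1.95-fold and 2.61-fold in the second. *Rims2*, which overlaps with *Rims1* in function, had 0.591, 1.25 and 1.11, 2.12-fold and 1.88-fold above GFP-negative cells. *Rims3* encodes a short form of the family that lacks the Rab3-binding part, and it departed from both. Its scaled intensities were 1.36, 2.08 and 0.235, with MGE cells far below both ES populations and within the control range. It was 8.88-fold lower in MGE than in ES-Lhx6-GFP+ and 5.79-fold lower than in GFP-negative cells, with log2 differences of -3.27 to -2.40 and -2.59 to -1.93 over all settings, from 1 probe.

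*Bsn* and *Pclo* encode Bassoon and Piccolo, large scaffolds carried to new synapses in transport vesicles. *Bsn* had scaled intensities of 3.72 in GFP-negative, 8.05 in ES-Lhx6-GFP+ and 9.39 in MGE-Lhx6-GFP+ cells. Both GFP+ populations were above GFP-negative cells, by 2.16-fold and 2.52-fold, and differed from each other by 1.17-fold. The first of these was under 2-fold with the 50th percentile (log2 difference of 0.67), which gave 0.97 between MGE and ES-Lhx6-GFP+ cells. *Pclo*, with 0.447, 0.990 and 0.991, was 2.22-fold above GFP-negative cells in both, and under 2-fold in the deposited values (log2 differences of 0.81 and 0.90). Its 4 probes fell in 2 pairs by transcript: the pair for one RefSeq transcript gave log2 differences of 1.49 and 1.70 between ES-Lhx6-GFP+ and GFP-negative cells and the pair for the other 0.73 and 0.68, and between MGE and GFP-negative cells these were 1.66 and 2.36 against 0.16 and 0.42. The first pair was dim, with scaled intensities of 0.223 and 0.104 in GFP-negative cells, not above the control probes. The second of these probes was not above them in ES-Lhx6-GFP+ cells either (0.337). *Unc13b*, Munc13-2, which opens syntaxin for SNARE assembly, had 1.10, 1.73 and 2.78 and was 2.53-fold higher in MGE than in GFP-negative cells. *Unc13a*, Munc13-1, the form on which most forebrain release depends, had 0.173, 0.280 and 0.143, within the control range on all 3 arrays. The Rab3 proteins, small GTPases on the vesicle surface, differed little: *Rab3a* had 13.6, 17.3 and 16.4, *Rab3b* 0.766, 0.796 and 0.652, and *Rab3c* 6.33, 6.60 and 8.02. With the 75th percentile the Rab3 differences were at most 1.28-fold, but with the 50th percentile *Rab3c* and *Rab3a* had log2 differences of 1.03 and 0.67 between MGE and ES-Lhx6-GFP+ cells. The 3 probes of *Rab3c* gave log2 differences of 0.69, -0.26 and -0.25 between ES-Lhx6-GFP+ and GFP-negative cells. All 10 genes of this role were higher in ES-Lhx6-GFP+ than in GFP-negative cells, where 64.5% of all genes were, except that the 3 Rab3 genes were lower with the 50th percentile, *Rab3c* also by its brightest probe (log2 difference of -0.26), and *Rab3b* also in the deposited values, with median signals without background subtraction and with normexp (-0.10, -0.11 and -0.06).

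**Figure D3:**
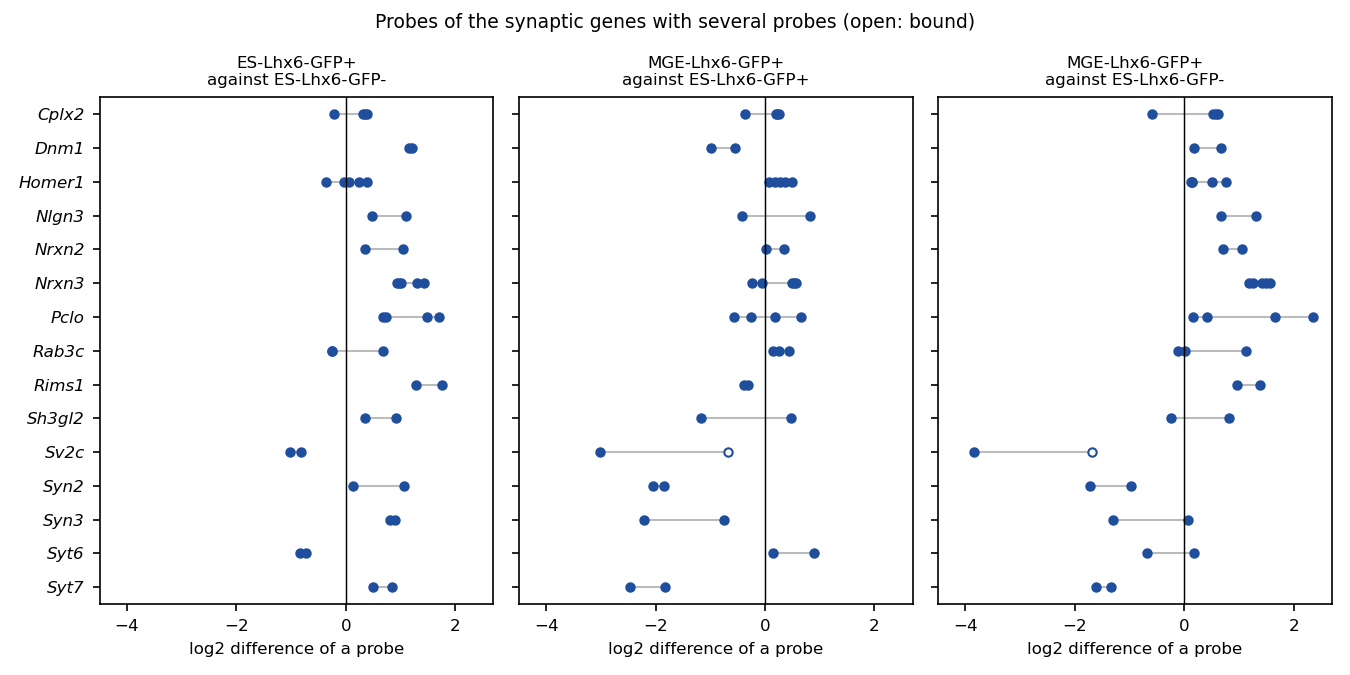
Log2 difference of every probe of the 15 genes with several probes (horizontal axis), 1 row per gene and 1 panel per comparison, with open points where a probe gave only a bound. The 5 probes of *Nrxn3* lay between 0.94 and 1.43 in ES-Lhx6-GFP+ over GFP-negative cells, while the 4 probes of *Pclo* fell in 2 pairs and those of *Sh3gl2* lay on both sides of 0 in MGE over ES-Lhx6-GFP+ cells.

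None of the 4 endocytosis genes met the condition of 4 scalings in a comparison. *Dnm1*, the neuronal dynamin that cuts vesicles from the membrane, had scaled intensities of 3.56 in GFP-negative, 8.10 in ES-Lhx6-GFP+ and 4.77 in MGE-Lhx6-GFP+ cells. It was highest in ES-Lhx6-GFP+ cells, 2.28-fold over GFP-negative cells, and the log2 difference of 1.19 became 0.74 with the 50th percentile. *Amph*, amphiphysin, which brings dynamin to the vesicle neck, was the reverse, with 5.89, 4.48 and 7.53, lowest in ES-Lhx6-GFP+ cells, above which MGE cells stood by 1.68-fold. *Synj1*, the phosphatase that helps strip the clathrin coat, had 0.900, 1.17 and 0.929, and *Sh3gl2*, endophilin A1, had 1.04, 1.62 and 1.27. The probes of *Sh3gl2* disagreed between MGE and ES-Lhx6-GFP+ cells, with log2 differences of 0.47 and -1.17. No gene had 1 probe at least 2-fold higher and another at least 2-fold lower in the same comparison.

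Of the adhesion genes, *Nrxn3*, a neurexin of the presynaptic membrane, had scaled intensities of 3.73 in GFP-negative, 8.17 in ES-Lhx6-GFP+ and 9.77 in MGE-Lhx6-GFP+ cells. It was 2.62-fold higher in MGE than in GFP-negative cells, with each of its 5 probes at least 2.28-fold higher, and 2.19-fold higher in ES-Lhx6-GFP+ than in GFP-negative cells, where the 50th percentile gave a log2 difference of 0.69. *Nrxn2* had 7.09, 11.5 and 13.1 and was 1.85-fold higher in MGE than in GFP-negative cells. The neuroligins are the postsynaptic partners of the neurexins. *Nlgn1*, found mainly at excitatory synapses, had 0.177, 0.173 and 0.496: both ES populations were within the control range and differed by 1.02-fold, and MGE cells were above it, 2.86-fold over ES-Lhx6-GFP+ and 2.81-fold over GFP-negative cells. With the floor raised to the control probes *Nlgn1* had no value against ES-Lhx6-GFP+ cells, whose floor of 0.504 lay above the level in MGE cells. *Nlgn2*, found at inhibitory synapses, had 4.29, 4.90 and 5.49, and its largest difference was 1.28-fold, between MGE and GFP-negative cells. With the 50th percentile its log2 difference between MGE and ES-Lhx6-GFP+ cells was 0.91. *Nlgn3*, found at both kinds, had 0.597, 1.03 and 1.18, 1.98-fold higher in MGE than in GFP-negative cells by the mean of its 2 probes. All 5 adhesion genes were higher in MGE than in ES-Lhx6-GFP+ cells, where 36.4% of all genes were, except that *Nrxn2*, *Nrxn3* and *Nlgn2* were slightly lower with quantile normalization, in the deposited values and with median signals without background subtraction (log2 differences of -0.01 to -0.15).

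No postsynaptic scaffold gene met the condition of 4 scalings. *Gphn*, gephyrin, which anchors glycine and GABA-A receptors, had scaled intensities of 0.526 in GFP-negative, 0.856 in ES-Lhx6-GFP+ and 1.04 in MGE-Lhx6-GFP+ cells, and MGE cells were 1.98-fold above GFP-negative cells. *Homer1*, which links metabotropic glutamate receptors to the scaffold, had 0.543, 0.567 and 0.687 and stayed within 1.27-fold. *Dlg4*, with 0.0245, 0.0705 and 0.0255, exceeded in ES-Lhx6-GFP+ cells its level in GFP-negative cells by at least 2.88-fold and that in MGE cells by at least 2.76-fold, but the deposited values gave log2 differences of 0.19 and -0.29, and all 3 levels were within the control range, so that no difference in *Dlg4* was measurable above the control probes.

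Other synaptic genes, from lists written with earlier results of these arrays known, were counted by the same 4 scalings. Of 42 further vesicle release genes, 1 was at least 2-fold higher and 3 at least 2-fold lower in ES-Lhx6-GFP+ than in GFP-negative cells. These were 2.38% and 7.14%, against 4.53% and 6.07% of all genes. In MGE cells 1 was higher and 7 lower than in ES-Lhx6-GFP+ cells (2.38% and 16.7%, against 4.21% and 6.4%). Against GFP-negative cells 4 of the 41 with a value were higher in MGE cells and 3 lower (9.76% and 7.32%, against 6.56% and 8.24%). The synucleins, small proteins at presynaptic vesicles, gave the largest of these: *Sncg* was 2.78-fold lower in ES-Lhx6-GFP+ than in GFP-negative cells and 6.66-fold lower again in MGE cells, and *Sncb* was 10.5-fold lower in MGE than in ES-Lhx6-GFP+ and 4.15-fold lower than in GFP-negative cells. *Syngr2*, a synaptogyrin also found in cells other than neurons, was 3.13-fold lower in ES-Lhx6-GFP+ and 7.91-fold lower in MGE cells than in GFP-negative cells. In both GFP+ populations *Sncg* and *Syngr2* were within the control range. Of 14 further endocytosis genes, 1 was higher in ES-Lhx6-GFP+ cells (7.14%, against 4.53% of all genes) and 3 were higher in MGE cells (21.4%, against 6.56%) than in GFP-negative cells. None was lower in any comparison, where 6.07 to 8.24% of all genes were. The higher ones were *Dnm3*, another dynamin, at 3.05-fold and 5.55-fold, *Pacsin1*, a dynamin-binding protein of neurons, at 5.03-fold in MGE cells, and *Snap91*, which assembles clathrin coats, at 2.76-fold in MGE cells.

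Vesicular transporters, which load transmitter into vesicles, were counted with subunits of the vesicle proton pump. None of this list was at least 2-fold higher under the 4 scalings in any comparison, where 4.21 to 6.56% of all genes were. In ES-Lhx6-GFP+ cells 3 of 8 were lower than in GFP-negative cells (37.5%, against 6.07% of all genes). In MGE cells 3 of 9 were lower than in GFP-negative cells (33.3% against 8.24%). Compared with ES-Lhx6-GFP+ cells 1 of 8 was lower in MGE cells (12.5% against 6.4%). *Slc17a8* (VGLUT3) was 7.72-fold lower in ES-Lhx6-GFP+ than in GFP-negative cells and at least 70.9-fold lower in MGE cells. *Slc18a2*, the vesicular monoamine transporter VMAT2, was 3.81-fold and 10.8-fold lower, and *Slc17a6* (VGLUT2) was 4.07-fold lower in MGE than in GFP-negative cells. *Slc32a1*, the vesicular GABA transporter, chosen here after its values were seen, had scaled intensities of 4.20, 10.3 and 9.07 and was 2.45-fold higher in ES-Lhx6-GFP+ and 2.16-fold higher in MGE cells than in GFP-negative cells, although not under each of the 4 scalings.

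Among 29 further adhesion genes, none was higher and 2 were lower (6.9%) in ES-Lhx6-GFP+ than in GFP-negative cells, against 4.53% and 6.07% of all genes. In MGE cells 1 was higher and 1 lower than in ES-Lhx6-GFP+ cells, of 28 with a value (3.57% each, against 4.21% and 6.4%). Compared with GFP-negative cells 1 was higher in MGE cells (3.45% against 6.56%) and 3 were lower (10.3% against 8.24%). *Slitrk4*, a leucine-rich repeat protein that promotes synapse formation, was 12.2-fold higher in MGE than in GFP-negative cells and 3.89-fold higher than in ES-Lhx6-GFP+ cells, while its relative *Slitrk3* was 5.65-fold lower in MGE than in ES-Lhx6-GFP+ cells. *Slitrk4* was within the control range on both ES arrays, and *Slitrk3* on the MGE array. The deposited log2 values of *Slitrk4* were 6.77 in GFP-negative, 7.30 in ES-Lhx6-GFP+ and 9.32 in MGE cells. *Ntng2*, netrin-G2, was 2.60-fold lower in ES-Lhx6-GFP+ and at least 12.1-fold lower in MGE than in GFP-negative cells. It was within the control range in both GFP+ populations. Its deposited log2 values were 7.93 in GFP-negative and 6.51 in MGE cells, a smaller difference. Of 17 further postsynaptic scaffold genes, 3 were higher (17.6%) and none lower in MGE than in GFP-negative cells, against 6.56% and 8.24% of all genes. Compared with ES-Lhx6-GFP+ cells 1 was lower in MGE cells (5.88% against 6.4%). In ES-Lhx6-GFP+ cells 1 was higher and 1 lower than in GFP-negative cells (5.88% each, against 4.53% and 6.07%). The scaffold proteins *Dlgap2* and *Dlgap1* were 7.20-fold and at least 4.13-fold higher in MGE than in GFP-negative cells, and *Shank2* was 3.97-fold lower in MGE than in ES-Lhx6-GFP+ cells. In GFP-negative cells *Dlgap2* and *Dlgap1* were within the control range. *Rest* had scaled intensities of 0.514 in GFP-negative, 0.429 in ES-Lhx6-GFP+ and 0.212 in MGE-Lhx6-GFP+ cells, lowest in MGE cells, with log2 differences of -0.26, -1.02 and -1.28 for ES-Lhx6-GFP+ over GFP-negative, MGE over ES-Lhx6-GFP+ and MGE over GFP-negative cells, and it did not meet the condition of 4 scalings. Of 9 genes of the REST repressor complexes 1, *Hdac2*, met it, at 3.81-fold higher in MGE than in GFP-negative cells (11.1%, against 6.56% of all genes).

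**Figure D4:**
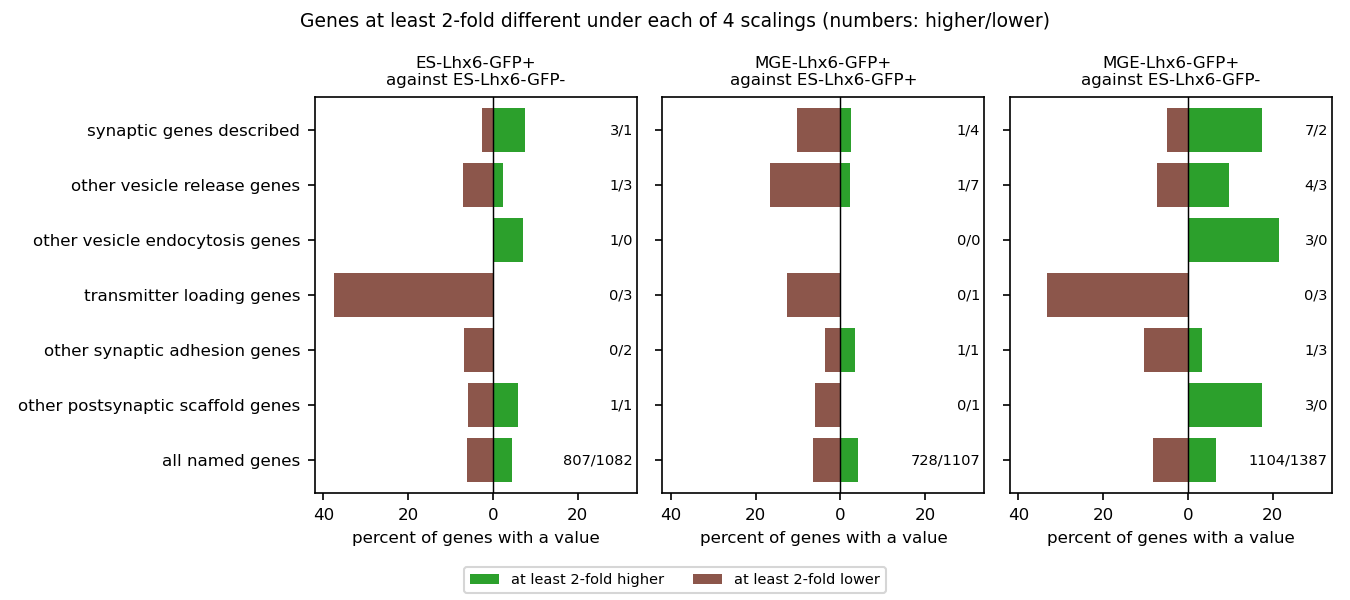
Share of genes at least 2-fold higher (green, to the right) or lower (brown, to the left) under each of the 4 scalings, in percent of the genes with a value, for the 42 synaptic genes described here, 5 lists of other synaptic genes and all named genes, with 1 panel per comparison and the counts of higher and lower genes at the right of each bar. In MGE over GFP-negative cells 17.5% of the synaptic genes were higher, against 6.56% of all named genes.

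The populations also differed in markers of other cells. Markers of the MGE lineage, 14 genes that include *Lhx6* (6.19-fold higher in ES-Lhx6-GFP+ and 10.6-fold higher in MGE than in GFP-negative cells) and *Gad1* (4.37-fold and 3.73-fold) and *Lhx8* (18.4-fold and 77.7-fold), had summed scaled intensities of 40.9 in GFP-negative, 150 in ES-Lhx6-GFP+ and 262 in MGE-Lhx6-GFP+ cells. General neuron markers, 14 genes, summed to 168, 231 and 258, and all were above the control range on each array. Of these *Tubb3* was 1.71-fold and 1.96-fold and *Dcx* 2.45-fold and 3.06-fold higher in ES-Lhx6-GFP+ and MGE than in GFP-negative cells, which is the direction of *Vamp2*, *Rims1* and *Bsn*. *Map2*, a dendritic microtubule protein, was 3.68-fold higher in MGE than in GFP-negative cells. The neuron markers did not all run that way. Of the 14, 11 had the higher value in ES-Lhx6-GFP+ cells, as had 64.5% of all genes, and 3 in GFP-negative cells. MGE cells exceeded GFP-negative cells in 10, against 47.4% of all genes, and were below them in 4. Neurofilament *Nefl*, named here after its values were seen, had 8.50, 5.31 and 2.83 and was at least 2-fold lower in MGE than in GFP-negative cells under each of the 4 scalings, and *Nefm* had 1.65, 1.16 and 1.16. Markers of progenitors and the cell cycle, 14 genes, summed to 71.7, 15.0 and 21.7, with *Hes5* 3.56-fold, *Mki67* 7.15-fold and *Slc1a3* 13.6-fold lower in ES-Lhx6-GFP+ than in GFP-negative cells. *Mki67* and *Slc1a3* were within the control range in ES-Lhx6-GFP+ cells. In MGE cells *Mki67*, *Top2a*, *Ccnb1*, *Cdk1* and *Mcm2* were at least 2-fold higher than in ES-Lhx6-GFP+ cells under each of the 4 scalings. These were 5 of the 14 (35.7%, against 4.21% of all genes), and none was lower (against 6.4%). All of them but *Mki67* are named after their values were seen. Oligodendrocyte lineage markers (7 genes) summed to 10.9, 2.87 and 1.78, astrocyte markers (5 genes) to 10.2, 2.14 and 0.670, and glutamatergic lineage markers (8 genes) to 3.27, 1.24 and 1.53. GFP-negative cells were highest in these lists: against them *Olig1* was at least 40.8-fold, *Aldh1l1* 29.3-fold and *Neurog2* 34.4-fold lower in MGE cells. All of these genes were within the control range in MGE cells. *Tbr1*, a transcription factor of early cortical neurons, ran the other way, with 0.205, 0.128 and 1.02, the largest part of the glutamatergic sum in MGE cells, where it was at least 2-fold higher than in both ES populations under each of the 4 scalings. The glutamatergic list shares *Slc17a6* with the transporters above, and *Tbr1*, like *Kdr* below, is named after its values were seen.

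Markers of blood cells, vessels, connective tissue and undifferentiated ES cells were summed in the same way. Erythroid markers (7 genes with a probe) summed to 0.924, 1.37 and 20.8, with *Hbb-y*, an embryonic globin, at 0.0158, 0.0404 and 9.77. Endothelial markers (7 genes) summed to 0.858, 0.965 and 1.01, with *Flt1* at least 15.3-fold lower in MGE than in GFP-negative cells. *Kdr*, another endothelial receptor, had 0.295, 0.190 and 0.811, most of the sum in MGE cells, and was at least 2-fold higher there than in ES-Lhx6-GFP+ cells under each of the 4 scalings, though its 2 probes gave log2 differences of 0.33 and 3.86, one of them a bound. Microglial markers (8 genes) summed to 2.52, 3.85 and 3.35. *Cx3cr1* had 0.00995, 0.0139 and 0.0465, within the control range on every array. Of its 2 probes 1 gave a value, a bound of at least 12.0-fold higher in MGE than in GFP-negative cells. Mesenchymal markers (8 genes) summed to 6.63, 4.89 and 1.58, with *Col3a1* 24.7-fold lower in MGE than in GFP-negative cells. In the order of populations used above, 1, 1 and 3 erythroid, 2, 1 and 1 endothelial, 2, 2 and 3 microglial and 6, 3 and 1 mesenchymal markers exceeded the control range. Pluripotency markers (8 genes) summed to 306, 311 and 391, nearly all of it from 1 *Nanog* probe with 298, 309 and 391, the highest of which was in MGE cells by this scaling but in GFP-negative cells with quantile normalization and in the deposited values. Of the others, *Dppa5a* was 22.6-fold lower in ES-Lhx6-GFP+ and 82.4-fold lower in MGE than in GFP-negative cells, and within the control range in both GFP+ populations. Not every marker of this list fell from GFP-negative to ES-Lhx6-GFP+ cells. *Dppa3* rose there from 0.0657 to 0.231 and *Zfp42* from 0.279 to 0.385, both within the control range in the latter cells. By this scaling 5 of the 8 markers fell and 3 rose. Under each of the 4 scalings 4 fell at least 2-fold and none rose so far. How far these differences in markers took part in the differences of the synaptic genes was not tested.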

How the data were processed

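Total RNA of 3 sorted populations was amplified, labeled with Cy3 and hybridized to 1 one-color Agilent mouse array each. The authors extracted the images with Agilent Feature Extraction, and the deposited scanner files give background-subtracted, detrended spot intensity, linear and not scaled between arrays. A normalized log2 table deposited by the authors does not state its scale, and its columns lay within 0.147 to 0.212, over all probes, of the quantile-normalized log2 median intensity without background subtraction. The labels and the paper differ in the amplification kit and array format they name.

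Here log2 of the background-subtracted intensity minus the 75th percentile of the array was used, outlier-flagged spots were left out (98 to 137 per array) and repeat spots were averaged. Detection followed the extraction software (its call on 0.5 or more of the spots of a probe). Undetected probes below a floor, the lowest scaled value that any detected probe of the array had, were raised to it and the others kept their own value, which makes the fold a lower bound, written "at least", that a higher floor can make smaller. Probes undetected on both arrays, or detected on one but below the floor of the other, gave no value. Log2 differences of probes were averaged per gene, and 26577 probes named 20142 genes through the RefSeq table of GRCm38.p6. With 1 array per group no test was made. The synaptic genes and all lists were chosen with earlier results of these data known. Each synaptic gene is accounted for, values on all 3 arrays are given for those at least 2-fold different in 1 direction under each of 4 scalings (75th and 50th percentile, quantile, deposited log2) and for most others, and of each further synaptic list the 3 such genes with the largest difference are named. From the marker lists *Lhx6*, *Gad1*, *Tubb3*, *Dcx*, *Mki67* and *Hes5* and the largest such difference of each list are named, and *Rest* in any case. 9 alternatives were run, in Python 3.11.15 (pandas 2.3.3, numpy 2.4.6) and R 4.3.3 (limma 3.58.1 for normexp), and the calculation was tested on simulated data.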

Additional observations from a re-analysis of the deposited data

How the results depend on the processing

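The limits are those of 1 array per population and of dim probes, which the control probes of the ES-Lhx6-GFP+ array, brighter than on the other arrays, make hardest to read there. Each of the 9 synaptic-gene summaries (the median and the counts at least 2-fold higher and lower, in 3 comparisons) was recomputed under 9 alternatives. No median was past 2-fold, so a turn of direction past 2-fold could be looked for in single genes only. No single-gene difference past 2-fold turned its direction. The 50th percentile moved most. It gave medians of 0.22 for ES-Lhx6-GFP+ over ES-Lhx6-GFP-, 0.63 for MGE over ES-Lhx6-GFP+ (in place of -0.11, so the sign of a median near 0 depends on the scaling) and 0.64 for MGE over ES-Lhx6-GFP- cells. Its counts were 4 higher and 3 lower, 12 higher and 4 lower, and 14 higher, in the same order of comparisons. For ES-Lhx6-GFP+ over ES-Lhx6-GFP- cells, 2 genes were lower with quantile normalization, and 0 with normexp and with the array floor raised to the control range. For MGE over ES-Lhx6-GFP+ cells, 5 were lower in the deposited values, and with the control floor 0 were higher and 5 lower. For MGE over ES-Lhx6-GFP- cells, 2 were lower with median signals without background subtraction, 2 in the deposited values, 3 with the control floor and 2 with normexp. Beyond the shift that a scaling gives all genes and the fewer genes that a higher floor leaves, the cause was not tested. All other summaries kept within 0.20 on the log2 scale or within 1.5 times the count. Of 121 differences of single genes, 121 moved by more than the repeat-spot SD with the 50th percentile, 52 in the deposited values, 52 with median signals without background subtraction, 43 with quantile normalization, 27 with the brightest probe alone, 23 with normexp, 12 with the control floor and 3 with no filter or floor. With quantile normalization 76 and with the control floor 97 did not move so far, and the remaining differences had no value there. The normexp correction on mean spot signals, planned at the start, was not run because the scanner files used here hold median signals only, and normexp on these (offset 50) was added after seeing the data. No paired analysis was possible because each group has 1 array.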
